A study of Mus musculus with 12 samples.

Results

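Kruppel-like factors are zinc finger transcription factors, and 10 of their genes, Klf2, Klf3, Klf4, Klf6, Klf7, Klf10, Klf11, Klf12, Klf13 and Klf15, are described here out of the 25239 genes counted. They were taken by gene symbol, and the family was chosen by the liver values of Klf10 and Klf4, which were higher after heat stress, so the liver heat comparison below describes these genes and carries no test of them. Brain and liver came from male wild-type (WT) C57BL6/J mice aged 24 months. Heat stress mice spent 3 hours a day at 40 °C and 60% relative humidity for 15 days, and control mice did not. Messenger RNA was sequenced from 3 libraries per tissue and treatment, which are brain control, brain heat stress, liver control and liver heat stress, 12 in all. The study asked how periodic heat exposure changes expression in aged brain and liver, and each library came from a small piece of frozen tissue whose region within the organ was not given in the sources used here.

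Every Kruppel-like factor ends in a trio of C2H2 zinc fingers that bind GC-rich boxes and CACCC boxes, and the members differ in the domains before the fingers, which recruit co-activators or co-repressors. Klf2 and Klf4 are known for keeping vascular endothelium quiescent, and blood flow induces them through the kinase ERK5 and MEF2 factors. Klf6 and Klf10 are rapid-response genes, Klf10 and Klf11 are early genes of transforming growth factor beta (TGF-beta) signalling, and Klf3 and Klf12 are repressors that bind the co-repressor CtBP. Klf7 is a neuronal factor tied to axon growth, Klf13 is a close relative of the hormone-responsive Klf9, and Klf15 is a glucocorticoid-induced regulator of amino acid catabolism and gluconeogenesis in liver. Klf10 and Klf15 also follow the circadian clock in liver.

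Upstream sequence is shown because several of these genes share a short element that other transcription factors of the lists below can bind. RefSeq promoters on GRCm38.p6, the assembly of mm10, were matched by symbol for 9 of the 10 members, all but Klf10, and the 250 bases before the start site were searched on both strands. The palindrome CACGTG, an E-box that clock proteins among others can bind, was present in Klf4, Klf6, Klf11 and Klf15, which is 4 of 9, and 6.02% of 32851 mouse promoters of that length hold it. The letters CACCC were present in 6 of 9 (52.0% of all promoters) and the GC box GGGCGG in 8 of 9 (32.7%), and these may overlap each other. A MEF2 site was present in Klf2 and in no other member (0.508% of all promoters). The cyclic AMP response element TGACGTCA (1.55% of all promoters), a CArG box (1.47%) and a heat shock element (0.466%) were in 0 of these 9 windows. The windows with an E-box, and that of Klf2 with its MEF2 site, are given 5′ to 3′ on the gene's own strand, and capitals mark the E-box, the CACCC letters, the GC box (the 6 letters given above) and the MEF2 site, each on either strand. They lie at chr4:55532476-55532725 (minus strand), chr13:5861239-5861488 (plus), chr12:24651121-24651370 (plus), chr6:90462326-90462575 (plus) and chr8:72318812-72319061 (plus) of mm10.
Klf4: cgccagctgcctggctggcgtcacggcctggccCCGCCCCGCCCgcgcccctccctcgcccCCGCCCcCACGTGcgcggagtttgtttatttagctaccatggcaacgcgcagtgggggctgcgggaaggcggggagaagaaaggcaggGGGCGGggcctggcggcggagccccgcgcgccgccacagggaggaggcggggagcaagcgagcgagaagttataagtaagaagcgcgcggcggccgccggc
Klf6: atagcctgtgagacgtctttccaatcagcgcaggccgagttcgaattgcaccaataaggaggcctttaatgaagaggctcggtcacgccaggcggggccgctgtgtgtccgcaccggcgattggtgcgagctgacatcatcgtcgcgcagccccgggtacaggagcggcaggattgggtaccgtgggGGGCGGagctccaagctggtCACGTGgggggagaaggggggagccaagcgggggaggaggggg
Klf11: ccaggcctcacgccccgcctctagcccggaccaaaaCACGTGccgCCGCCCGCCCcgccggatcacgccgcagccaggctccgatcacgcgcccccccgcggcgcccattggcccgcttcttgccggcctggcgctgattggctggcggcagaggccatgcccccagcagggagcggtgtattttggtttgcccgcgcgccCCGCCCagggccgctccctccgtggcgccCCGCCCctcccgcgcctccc
Klf15: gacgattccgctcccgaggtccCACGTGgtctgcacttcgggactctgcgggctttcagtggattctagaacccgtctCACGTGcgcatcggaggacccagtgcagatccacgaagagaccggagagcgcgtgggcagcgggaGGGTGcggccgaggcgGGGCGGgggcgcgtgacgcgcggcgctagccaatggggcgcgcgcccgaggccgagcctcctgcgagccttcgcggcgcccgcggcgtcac
Klf2: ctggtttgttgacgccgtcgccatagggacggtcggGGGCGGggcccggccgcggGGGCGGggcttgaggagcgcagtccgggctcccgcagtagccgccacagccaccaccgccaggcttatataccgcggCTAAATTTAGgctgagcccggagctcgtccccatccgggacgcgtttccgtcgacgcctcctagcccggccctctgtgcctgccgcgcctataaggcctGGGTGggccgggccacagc
Klf15 holds 2 E-boxes and each of the other 3 holds 1. A match says that the letters are present and not that a factor was bound. Klf12 starts in RefSeq 134883 bases inside the gene as GENCODE draws it, so the window searched for it lies before an internal start.

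The libraries held between 10466198 and 15609040 counts. The labels fitted the markers: Alb, the hepatocyte albumin gene, had between 50410 and 86770 CPM, which are counts scaled for library size, in liver and at most 9.58 in brain, and Snap25, a neuronal synapse gene, had at least 2592 in brain and at most 8.52 in liver. Liver control replicate 1 and liver heat stress replicate 2 carried skeletal muscle transcripts, with summed muscle marker levels of 306.6 and 1816 CPM against at most 5.92 in the other 4 liver libraries. Liver control replicate 1 also held the highest Snap25 value in liver. In the column names, liver control replicate 2 and liver heat stress replicates 1 and 3 carry the suffix 2nd, which is not explained in the sources used here. All CPM values are normalized by trimmed mean of M values (TMM) within the libraries being compared.

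In control tissue the members were ordered differently in brain and liver, and Klf13 led in brain while Klf15 led in liver. Levels between genes are given as CPM per kilobase of the longest coding transcript, with CPM scaled within each tissue. In control brain Klf13 stood at 28.5 ± 3.29 (SD, n = 3), followed by Klf15 at 14.2 ± 1.89, Klf6 at 11.6 ± 0.827, Klf10 at 9.05 ± 2.10, Klf2 at 5.29 ± 2.47, Klf12 at 4.17 ± 0.544, Klf3 at 2.47 ± 0.391, Klf4 at 2.34 ± 0.784, Klf11 at 2.14 ± 0.254 and Klf7 at 0.635 ± 0.0371 (SD, n = 3 each). Neighbours in this order overlapped in their 3 libraries, except that Klf13 stood clear of Klf15, Klf12 of Klf3, and Klf11 of Klf7. In control liver Klf15 stood at 62.8 ± 18.4, followed by Klf10 at 7.98 ± 1.35, Klf13 at 4.85 ± 2.24, Klf2 at 3.08 ± 0.244, Klf6 at 2.58 ± 1.59, Klf11 at 2.55 ± 0.385, Klf3 at 2.38 ± 0.701, Klf12 at 1.70 ± 0.0487, Klf4 at 0.302 ± 0.0802 and Klf7 at 0.0746 ± 0.0309 (SD, n = 3 each). The liver values of Klf10 to Klf12 each overlapped with the next in the order, whereas Klf15 stood clear above them and Klf4 and Klf7 clear below.

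**Figure D1:**
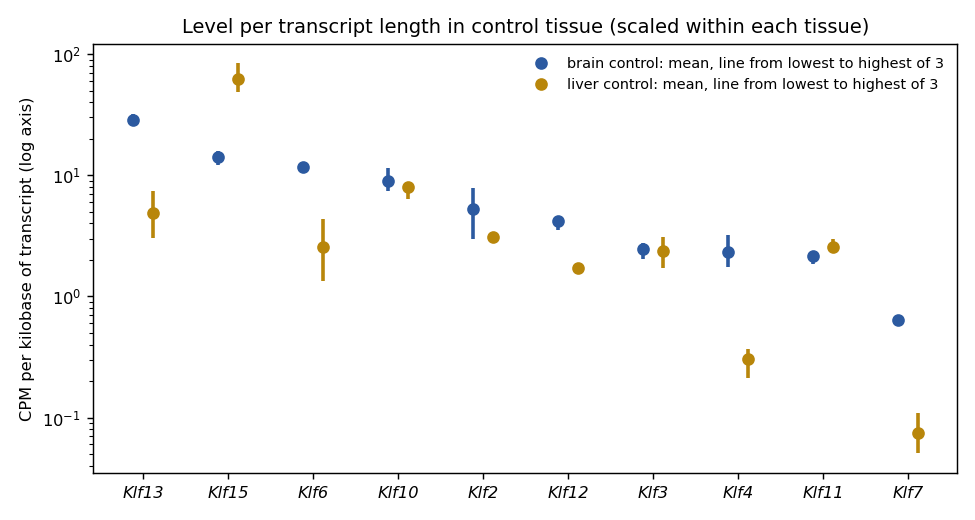
Level of each member in control brain (blue) and control liver (ochre) in CPM per kilobase of transcript on a log axis, with the mean of 3 libraries as a point and a line from the lowest to the highest library. CPM were scaled within each tissue here, so the points compare members within a tissue and not brain with liver. With both control tissues scaled together, Klf10 and Klf3 were higher in liver. Klf15 in liver, at 62.8, is the highest point, and Klf7 in liver, at 0.0746, the lowest.

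The control libraries of brain and liver were compared directly. The choice of the family did not use this contrast, but it did use the same liver control libraries. The tests of Klf4 and Klf10 here are thus not independent of that choice. Of the 10 members, 4 were higher in brain and 4 higher in liver at an adjusted p under 0.05, by the quasi-likelihood test of edgeR adjusted after Benjamini and Hochberg over 15213 genes, of which 78.3% were called, 42.8% higher in brain and 35.5% higher in liver. Most genes thus differ between these tissues, and the count of members is close to that background. Klf7, Klf4, Klf13 and Klf6 were the members higher in brain, while Klf15, Klf11, Klf3 and Klf10 were higher in liver. The median log2 difference of all genes tested, brain minus liver, was 0.20. In this comparison, where CPM are scaled over the 6 control libraries and so differ from the values given elsewhere for the same libraries, Klf15 had 332.8, 195.1 and 174.3 CPM in liver control replicates 1, 2 and 3 and 20.4, 24.8 and 26.9 in brain. The log2 difference was -3.29 (SE 0.29, adjusted p = 4.51e-06), the largest in size among the members.

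The neuronal factor Klf7 had 3.27, 3.14 and 3.57 CPM in control brain and 0.620, 0.690 and 1.20 in control liver, which is only 6, 6 and 9 counts. It was 2.01 higher in brain on the log2 scale (SE 0.35, adjusted p = 5.06e-04). Klf4 had 4.20, 3.61 and 6.75 CPM in brain and 1.03, 1.38 and 1.60 in liver, 1.86 higher in brain (SE 0.36, adjusted p = 9.85e-04). These low liver levels set the counting error behind every liver value of both genes. Klf13 had 139.9, 120.2 and 113 CPM in brain and 75.3, 27.4 and 38.2 in liver, 1.40 higher in brain (SE 0.34, adjusted p = 0.00362). Klf6 had 33.7, 35.5 and 31.3 CPM in brain and 9.09, 12.1 and 26.4 in liver, 1.09 higher in brain (SE 0.34, adjusted p = 0.0156). The groups did not overlap for any of these 4 (44.4% of all genes were separated this way), although the Klf6 call was lost without liver control replicate 2 (adjusted p = 0.0533).

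Klf11 had 15.0, 13.6 and 17.5 CPM in liver and 6.54, 5.15 and 6.24 in brain, a log2 difference of -1.36 (SE 0.21, adjusted p = 2.02e-04). Klf3 had 25.9, 12.5 and 17.5 CPM in liver and 7.19, 9.76 and 9.42 in brain, a log2 difference of -1.09 (SE 0.28, adjusted p = 0.00498). Klf10 had 31.3, 37.0 and 38.7 CPM in liver and 23.7, 17.2 and 15.6 in brain, a log2 difference of -0.92 (SE 0.21, adjusted p = 0.00254). All 3 genes, like Klf15, thus had every liver library above every brain library (37.1% of all genes). Klf2 and Klf12 did not pass the test, with log2 differences of -0.34 (SE 0.34, adjusted p = 0.383) and 0.17 (SE 0.19, adjusted p = 0.417), and their groups overlapped. The Klf2 value depended on brain control replicate 2, without which it was 0.008.

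In heat-stressed liver the values of Klf4 and Klf10 were 2.47 and 1.83 times the control level, the largest ratios among the 9 members with enough counts to be fitted. These are the values by which the family was chosen. Of these 9, 7 had a log2 fold change above 0, which held for 51.8% of the 12296 genes fitted, and the median of the 9 was 0.50 against 0.01 over all genes. Both figures include Klf4 and Klf10, so they are raised by the choice itself and are no result about the family. By the same test of edgeR, 0 genes of the liver table (0.00%) had an adjusted p under 0.05, while 718 (5.84%) had an unadjusted p under 0.05 and DESeq2 called 61 (0.520% of those it gave an adjusted p). Klf2 was the one member whose heat stress libraries all lay above the controls (5.38% of all genes) and Klf12 the one whose libraries all lay below (5.73%). Without liver control replicate 3 the former count was 4 (10.3% of all genes in that smaller comparison), without liver heat stress replicate 1 it was 4 (10.0%), without liver heat stress replicate 2 it was 3 (10.1%) and without liver control replicate 1 it was 2 (15.7%), with Klf2 and Klf12 separated each time. The share of all genes thus also went up when a library was left out.

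**Figure D2:**
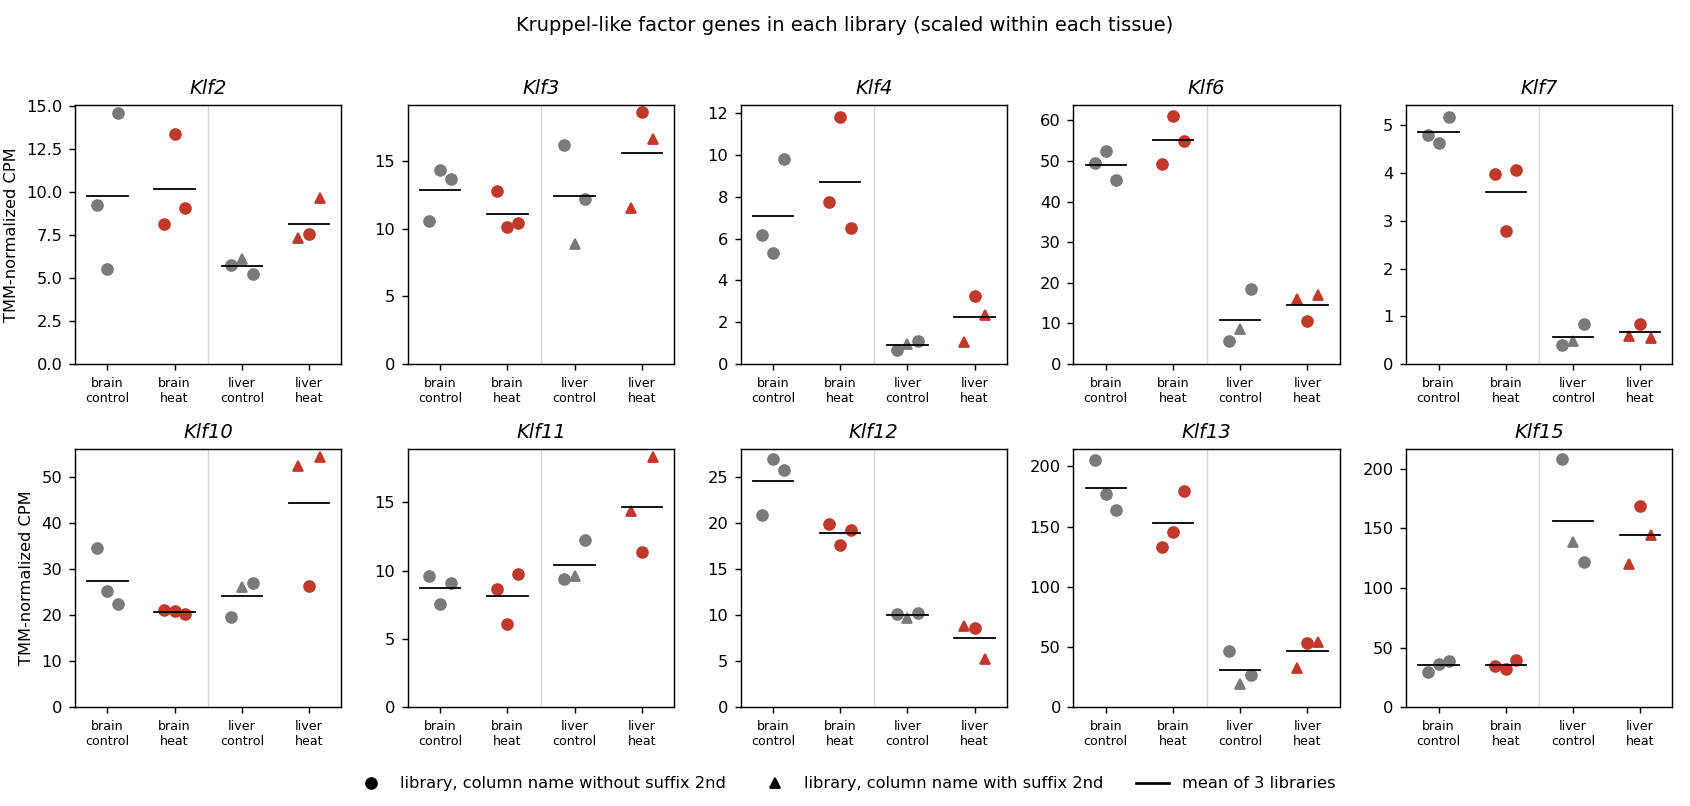
TMM-normalized CPM of each member in every library, scaled within each tissue, with control libraries in grey, heat stress libraries in red, the mean of 3 libraries as a line and triangles for column names with the suffix 2nd. In liver, 2 of the 3 heat stress libraries of Klf10 lie above 50 CPM and the third lies among the controls.

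Klf10, also called TIEG1, a TGF-beta-inducible repressor, lies at chr15:38291463-38300706 of mm10 on the minus strand. It had 19.6, 26.3 and 27.0 CPM in liver control replicates 1, 2 and 3 and 52.4, 26.3 and 54.5 CPM in liver heat stress replicates 1, 2 and 3, from 303, 322 and 290 counts and 704, 378 and 691 counts. Heat stress replicates 1 and 3 stood far above the controls, whereas replicate 2 lay among them. The log2 fold change was 0.87 (SE 0.27). It was 0.68 at the lowest and 1.14 at the highest when 1 library was left out in turn, and 0.99 without both libraries that carried muscle transcripts. Heat stress replicates 1 and 3 are also the pair with the suffix 2nd: within the libraries with the suffix (2 heat stress, 1 control) the log2 difference was 1.01, and within those without it (1 heat stress, 2 controls) it was 0.19. Such differences within a suffix, here and below, are between means of log2 CPM with a small constant added, and are not fitted fold changes. With the suffix as a covariate the log2 fold change was 0.61. The part of the suffix in the Klf10 value was not tested further.

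Klf4, at chr4:55527143-55532466 of mm10 on the minus strand, is an endothelial and epithelial factor better known as a reprogramming factor. In liver it had 0.646, 0.979 and 1.12 CPM in the controls and 1.04, 3.28 and 2.37 CPM after heat stress. Those values rest on 10, 12 and 12 counts against 14, 47 and 30. Heat stress replicates 2 and 3 lay above all controls and replicate 1 lay between them. The log2 fold change was 1.30 (SE 0.47), and it was 0.68 without both libraries with muscle transcripts, of which heat stress replicate 2 held the highest Klf4 value. Within the libraries with the suffix 2nd the log2 difference was 0.51, and within those without it 1.47. At levels this low the added constant shrinks these differences, so they do not compare directly with the fitted 1.30. Klf4 and Klf10 were thus highest in different heat stress livers, Klf4 in replicate 2 and Klf10 in replicate 3.

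Klf2, the endothelial companion of Klf4, had 5.75, 6.12 and 5.22 CPM in control liver and 7.30, 7.53 and 9.62 after heat stress. All 3 heat stress libraries were above all controls, and the log2 fold change was 0.51 (SE 0.21). The log2 difference was 0.43 within both the libraries with the suffix 2nd and those without. The summed level of 7 endothelial markers was between 104.7 and 120.8 CPM after heat stress and between 89.5 and 106.6 in the controls, with 6 of 7 above 0 and a median log2 fold change of 0.23, and the 4 sinusoidal endothelial markers had a median of 0.20. The 5 T and NK cell markers were the one marker list whose sums separated the liver groups, at 5.09 to 10.7 CPM after heat stress and 1.49 to 3.34 in the controls. Their median log2 fold change was 1.61 over the 4 fitted, 3 of which were higher at an unadjusted p under 0.05 and 0 called by edgeR. The part of endothelial, T and NK cells in the liver values of Klf2 and the other members was not tested. In bulk tissue a change in the number of cells of a type and a change in the RNA per cell cannot be told apart.

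Klf11, also called TIEG2 and the closest relative of Klf10, had 9.36, 9.62 and 12.2 CPM in control liver and 14.4, 11.4 and 18.3 after heat stress, a log2 fold change of 0.50 (SE 0.22). Its heat stress replicate 2 lay among the controls, as for Klf10, and the other two lay above them. Within the libraries with the suffix 2nd the log2 difference of Klf11 was 0.72, and within those without it 0.08, and the log2 fold change was 0.29 without heat stress replicate 3. Klf6, a rapid-response factor of injured liver, had 5.68, 8.56 and 18.5 CPM in the controls and 16.1, 10.7 and 17.0 after heat stress, and its highest value was control replicate 3. The Klf6 log2 fold change was 0.43 (SE 0.38), and it was 0.10 without control replicate 1 and 1.03 without control replicate 3. Within the libraries with the suffix 2nd the log2 difference of Klf6 was 0.91, and within those without it 0.045.

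Klf13 had 47.1, 19.4 and 26.7 CPM in control liver and 33.0, 53.7 and 54.3 after heat stress, a log2 fold change of 0.59 (SE 0.32). The groups overlapped through control replicate 1 and heat stress replicate 1, and the value was 1.02 without control replicate 1 and 0.35 without control replicate 2. Without both libraries with muscle transcripts Klf2, Klf10, Klf11 and Klf13 lay above the controls in every remaining heat stress library (20.7% of all genes in that smaller comparison). Klf3 had 16.2, 8.89 and 12.2 CPM in the controls and 11.5, 18.7 and 16.6 after heat stress, a log2 fold change of 0.33 (SE 0.26), and its groups overlapped. The Klf3 value was 0.13 without control replicate 2, 0.18 without heat stress replicate 2 and 0.56 without control replicate 1. Klf3 and Klf15 were highest in their group in both libraries with muscle transcripts, while Klf6, Klf10 and Klf11 were lowest in their group in both. The immediate early list was also at its lowest in control replicate 1, at 155.6 CPM in sum against at least 758.1 in the other 5 livers. The part of muscle tissue in these values was not tested.

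Klf12, a CtBP-binding repressor, was the only member with lower values in every heat-stressed liver, at 8.79, 8.64 and 5.28 CPM against 10.1, 9.70 and 10.3 in the controls. The log2 fold change was -0.40 (SE 0.23), and heat stress replicate 3 lay furthest from the controls, with -0.22 without it. Klf15 had 207.9, 138.3 and 121.7 CPM in the controls and 120.5, 168.9 and 144.6 after heat stress, a log2 fold change of -0.11 (SE 0.24). Its groups overlapped, and the sign turned to 0.14 without control replicate 1 and to 0.02 without both libraries with muscle transcripts. Klf7, with 6, 6 and 9 counts in the controls and 8, 12 and 7 after heat stress, was left out of the fit by the filter on low counts, and counts this low can show only large differences.

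**Figure D3:**
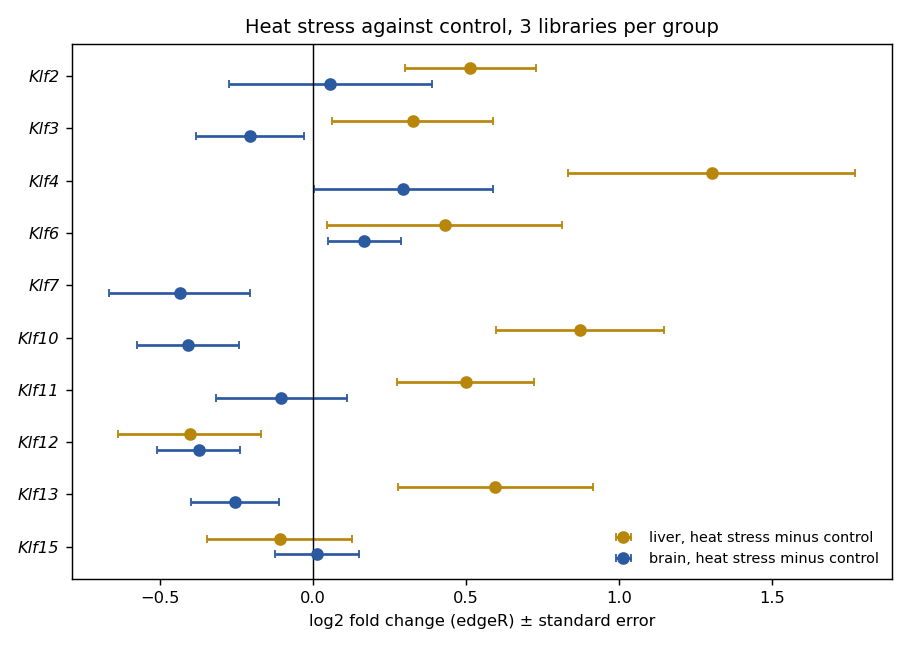
Log2 fold change of heat stress against control for each member in liver (ochre) and brain (blue), with lines of 1 standard error either side and 3 libraries per group. In liver Klf4 at 1.30 and Klf10 at 0.87 lie furthest to the right, whereas in brain Klf7, Klf10 and Klf12 lie furthest to the left, and Klf7 has no liver value.

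Brain gave values of the members in libraries that the choice of the family did not use, and none of the 10 members passed the test there. With edgeR the members' adjusted p lay between 0.196 and 0.966, and 0 of 14806 genes (0.00%) had an adjusted p under 0.05. At an unadjusted p under 0.05 there were 2969 genes (20.1%), 10.0% higher and 10.0% lower, and among the members 0 higher and 2 lower, Klf10 and Klf12. DESeq2 called 618 genes (7.95% of those it gave an adjusted p) and 0 of the 4 members that had one. Klf7, Klf10 and Klf12 had every heat stress library below every control library, which is 3 of 10 beside 1774 of the 14806 genes, and 0 of 10 had the reverse (12.9% of all genes, and 24.9% in either direction). Of the members 4 had a log2 fold change above 0, against 49.7% of all genes. The median log2 fold change of the members was -0.15 against 0.00 over all genes.

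Klf10 had 34.8, 25.3 and 22.6 CPM in brain control replicates 1, 2 and 3 and 21.2, 20.96 and 20.2 CPM in brain heat stress replicates 1, 2 and 3. The heat stress values were nearly the same in all 3 libraries, and control replicate 1 stood above the other controls. The log2 fold change was -0.41 (SE 0.17, adjusted p = 0.223) by edgeR's quasi-likelihood test, and -0.20 without control replicate 1. DESeq2 gave an adjusted p of 0.178. Klf11, its closest relative, had 9.60, 7.59 and 9.07 CPM in the controls and 8.68, 6.09 and 9.73 after heat stress, with a log2 fold change of -0.10 (SE 0.21, adjusted p = 0.811) and groups that overlapped. The Klf11 value turned to 0.069 without heat stress replicate 2 and was -0.248 without heat stress replicate 3.

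Klf12 had 20.9, 27.0 and 25.7 CPM in control brain and 19.9, 17.7 and 19.3 after heat stress. Control replicate 1 lay just above the highest heat stress library and the other 2 controls further off. The log2 fold change was -0.37 (SE 0.14, adjusted p = 0.196), the smallest adjusted p among the members, and with single libraries left out it stayed between -0.48 and -0.31. Klf3, which binds the same co-repressor, had 10.6, 14.4 and 13.7 CPM in the controls and 12.8, 10.1 and 10.5 after heat stress, a log2 fold change of -0.21 (SE 0.18, adjusted p = 0.531). Control replicate 1 and heat stress replicate 1 made the Klf3 groups overlap, and the value was -0.12 without control replicate 2.

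Klf7 had 4.80, 4.63 and 5.18 CPM in control brain and 3.97, 2.78 and 4.06 after heat stress, from 70, 53 and 64 counts against 43, 31 and 43. The groups did not overlap, and the log2 fold change was -0.43 (SE 0.23, adjusted p = 0.314), and -0.28 without heat stress replicate 2. Klf13, the most abundant member in brain, had 205.3, 177.2 and 164.1 CPM in the controls and 133.3, 145.9 and 179.3 after heat stress. Heat stress replicate 3 lay among the controls, and the log2 fold change was -0.25 (SE 0.14, adjusted p = 0.346), and -0.16 without control replicate 1.

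The groups of the endothelial factors Klf2 and Klf4 overlapped in the same brain libraries in which endothelial markers were separated. Klf2 had 9.26, 5.50 and 14.6 CPM in control brain and 8.13, 13.4 and 9.07 after heat stress, a log2 fold change of 0.06 (SE 0.33, adjusted p = 0.941). Klf4 had 6.17, 5.32 and 9.79 CPM in the controls and 7.76, 11.8 and 6.52 after heat stress, a log2 fold change of 0.30 (SE 0.29, adjusted p = 0.591). Klf2 and Klf4 were both highest among the controls in replicate 3 and lowest in replicate 2, and both highest after heat stress in replicate 2. The Klf4 value was 0.009 without heat stress replicate 2 and 0.59 without control replicate 3. The sign of the Klf2 value turned to -0.23 without control replicate 2 and to -0.19 without heat stress replicate 2. The 7 endothelial markers, in contrast, summed to 243.7, 121.5 and 143.2 CPM in the controls and 83.2, 102.4 and 84.1 after heat stress, without overlap. All 7 had a log2 fold change below 0, with a median of -1.03, and 6 had an unadjusted p under 0.05 (20.1% of all genes) while 0 had an adjusted p under 0.05 by edgeR. Of the markers, Cldn5, a tight junction gene, had a log2 fold change of -0.62 (SE 0.19, adjusted p = 0.172). Other marker lists also moved in these brain libraries. The 5 choroid plexus markers were all below 0, with a median of -1.425, and the 5 striatal markers all above 0, with a median of 1.175. The 5 mural cell markers had a median of -0.601, with 3 below 0 and 2 above, and their sums overlapped. The part of these lists in the endothelial values was not tested. Whether the ratio of Klf2 or Klf4 to the endothelial markers differs between the groups was not tested.

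**Figure D4:**
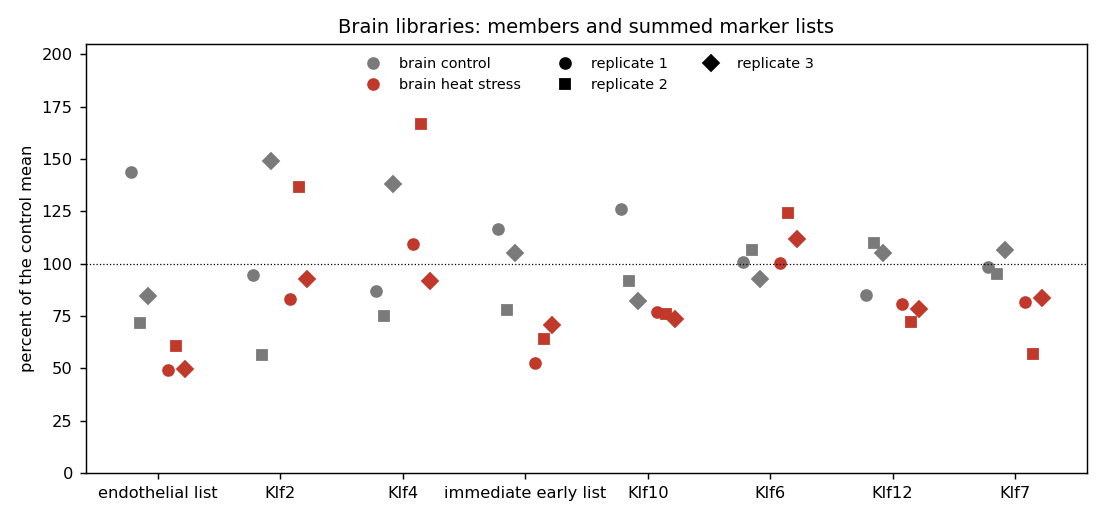
Brain libraries as percent of the control mean for the summed endothelial list, Klf2, Klf4, the summed immediate early list, Klf10, Klf6, Klf12 and Klf7, with control in grey, heat stress in red and the replicate number as the symbol. The heat stress libraries lie at or under 60.4% of the control mean for the endothelial list and at or under 70.7% for the immediate early list, whereas those of Klf2 and Klf4 lie among the controls, except for Klf4 in heat stress replicate 2, at 166.6%.

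Klf6 had 49.5, 52.4 and 45.4 CPM in control brain and 49.3, 61.0 and 55.0 after heat stress, and its log2 fold change was 0.17 (SE 0.12, adjusted p = 0.447). Its heat stress replicate 1 lay among the controls, and the value was 0.09 without heat stress replicate 2. Klf15 had 30.0, 36.6 and 39.0 CPM in the controls and 34.4, 32.3 and 39.8 after heat stress, a log2 fold change of 0.01 (SE 0.14, adjusted p = 0.966). The Klf15 sign turned to -0.092 without control replicate 1 and to -0.077 without heat stress replicate 3. The 12 immediate early genes, the class to which the rapid response of Klf6 and Klf10 belongs, summed to between 467.2 and 629.6 CPM after heat stress and between 694 and 1041 in control brain, and 11 of 12 had a log2 fold change below 0. Of these, 5 were lower and 0 higher at an unadjusted p under 0.05 (10.0% of all genes each way) and 0 were called by edgeR, and the most abundant, Egr1, Arc and Nr4a1, had log2 fold changes of -0.75, -1.15 and -0.39 (adjusted p = 0.170, 0.170 and 0.331). The synaptic gene Arc had 281.3, 181.3 and 256.7 CPM in control brain and 90.7, 113.6 and 119.8 after heat stress, and DESeq2 called it and Egr1. In liver 10 immediate early genes were fitted and 0 had an unadjusted p under 0.05, with Egr1, Jun and Ier2 at 0.14, 0.33 and 0.24. The brain libraries also differed in markers of region: 5 striatal markers summed to between 497.7 and 1113 CPM after heat stress and between 267.8 and 494.8 in the controls, and 5 choroid plexus markers to between 240.9 and 1092 against between 1207 and 2421. Both lists separated the groups, and their part in the members' values was not tested.

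Side by side, Klf10, Klf11, Klf13 and Klf3 had log2 fold changes of 0.87, 0.50, 0.59 and 0.33 in liver and -0.41, -0.10, -0.25 and -0.21 in brain, where the Klf11 value turned to 0.07 without heat stress replicate 2. Klf12 was below 0 in both tissues, at -0.40 in liver and -0.37 in brain. Its groups were separated with lower values in both tissues, as for 1 of the 9 members and 63 of the 11322 genes fitted in both (0.556%). Counted in any direction, 1 of the 9 members and 247 genes (2.18%) were separated in both. The count of lower values takes the direction that Klf12 itself showed, and neither count is a test of the members. Klf4, Klf6 and Klf2 were above 0 in both tissues, at 1.30, 0.43 and 0.51 in liver and 0.30, 0.17 and 0.06 in brain, where the Klf2 sign and nearly all of the Klf4 value depended on heat stress replicate 2. A difference of the heat effect between the tissues was not tested, because the liver values chose the family.

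The other 7 genes of the family gave 0 called genes by edgeR in either tissue, and 0 of those fitted had an unadjusted p under 0.05. Klf9, the glucocorticoid-induced relative of Klf13, had 224.6, 207.2 and 200.7 CPM in control brain and 212.3, 193.6 and 226.8 after heat stress, a log2 fold change of 0.00 (SE 0.12, adjusted p = 0.999), and 0.25 (SE 0.21, adjusted p = 0.947) in liver. Klf16 had log2 fold changes of 0.15 in brain (adjusted p = 0.596) and 0.67 in liver (adjusted p = 0.882). In brain Klf8 and Klf5 had 0.03 and -0.02 (adjusted p = 0.952 and 0.985), and in liver the erythroid factor Klf1 had 0.21 (adjusted p = 0.961). Klf14 and Klf17 had too few counts to be fitted in both tissues, Klf1 in brain, and Klf5 and Klf8 in liver.

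Of 12 TGF-beta pathway genes, the ligands, receptors, SMADs and early targets to which Klf10 and Klf11 belong, 11 were fitted in liver, with 9 above 0 and a median log2 fold change of 0.36. At an unadjusted p under 0.05 there were 4 higher and 0 lower, against 2.97% and 2.87% of all genes, and 0 had an adjusted p under 0.05. The T and NK cell markers given beside Klf2 also separated these livers, and their part in the values of the list was not tested. The most abundant TGF-beta pathway genes were Smad4, the common SMAD, at 0.23 (SE 0.15, adjusted p = 0.934) and the receptors Tgfbr1 at -0.13 (SE 0.19, adjusted p = 0.965) and Tgfbr2 at 0.61 (SE 0.17, adjusted p = 0.465). Tgfbr2 had 19.9, 20.9 and 18.7 CPM in the controls and 33.7, 30.5 and 26.9 after heat stress, without overlap. In brain 12 were fitted, with 8 below 0 and a median of -0.19, and 1 was higher and 3 lower at an unadjusted p under 0.05 (10.0% of all genes each way), none of them called. Smad4, the co-repressor Skil and Smad3 had log2 fold changes of 0.03, 0.26 and -0.19 there (adjusted p = 0.909, 0.288 and 0.629).

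Of 13 clock genes, of which Klf10 and Klf15 are known outputs in liver, 12 were fitted in liver, and 5 were higher and 2 lower at an unadjusted p under 0.05 (2.97% and 2.87% of all genes), with 0 called. The most abundant there were Tef at 0.44 (SE 0.20, adjusted p = 0.848), Nr1d2 at 0.29 (SE 0.27, adjusted p = 0.947) and Dbp, an output gene, at 1.05 (SE 0.28, adjusted p = 0.465). Dbp had 98.4, 45.1 and 72.2 CPM in control liver and 114.8, 157.8 and 174.7 after heat stress, without overlap. These livers were also separated by the T and NK cell markers given beside Klf2. The part of those cells in the liver values of the clock list and the lists below was not tested. In brain 4 clock genes were higher and 1 lower at an unadjusted p under 0.05 of 13, against 10.0% of all genes each way. Nr1d2 had 129.9, 135.8 and 152.3 CPM in control brain and 202.9, 196.8 and 182.3 after heat stress, a log2 fold change of 0.48 (SE 0.11, adjusted p = 0.170), and DESeq2 called it (adjusted p = 0.0127). Tef at 0.22 and Cry2 at -0.07 did not pass either test. The hour at which tissue was taken was not given in the sources used here.

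Of the ERK5 and MEF2 genes upstream of Klf2 and Klf4 in endothelium, with their targets Nos3 and Thbd, 8 of 8 were fitted in each tissue and 0 were called. In brain 0 were higher and 2 lower at an unadjusted p under 0.05 (10.0% of all genes each way), and Mef2c, Mef2a and Mef2d had log2 fold changes of -0.07, 0.20 and -0.32 (adjusted p = 0.857, 0.370 and 0.238). In liver 0 had an unadjusted p under 0.05, and Mef2a, Mef2d and Map2k5 were at 0.15, 0.00 and 0.18.

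Of 7 glucocorticoid receptor and response genes, 2 were higher and 1 lower in liver at an unadjusted p under 0.05 (2.97% and 2.87% of all genes), and 0 higher and 1 lower in brain (10.0% each way), with 0 called in either tissue. Nr3c1, the receptor itself, had log2 fold changes of -0.11 in liver and 0.02 in brain (adjusted p = 0.973 and 0.920). Tsc22d3, a target of the receptor, had 86.8, 88.3 and 57.5 CPM in control liver and 42.2, 48.5 and 41.1 after heat stress, a log2 fold change of -0.82 (SE 0.20, adjusted p = 0.431) that DESeq2 called (adjusted p = 0.0336). The higher genes, named after their values were seen, were Per1, also a clock gene, and Fkbp5, with log2 fold changes of 1.24 (SE 0.30, adjusted p = 0.424) and 0.56 (SE 0.17, adjusted p = 0.604) in liver. Per1 had 20.5, 10.6 and 15.0 CPM in control liver and 23.9, 36.8 and 48.2 after heat stress, and DESeq2 called it (adjusted p = 0.0347). Dusp1, the third of the most abundant in liver, stood at 0.04 (SE 0.29, adjusted p = 0.995). In brain Tsc22d3 and Per1 had 0.16 (SE 0.16, adjusted p = 0.5996) and 0.02 (SE 0.22, adjusted p = 0.962). Klf9 and Klf15, which glucocorticoids are known to induce, had liver values of 0.25 and -0.11. Of 6 genes of amino acid catabolism and gluconeogenesis tied to Klf15, 1 was higher and 0 lower in liver at an unadjusted p under 0.05 (2.97% and 2.87% of all genes) and 0 were called, with Pck1 at 0.44, Tat at -0.40 and G6pc at -0.01 (adjusted p = 0.930, 0.943 and 0.997). In brain 3 of the 6 were fitted, Prodh, Gpt and Bcat2, with log2 fold changes of -0.12, -0.04 and -0.07 (adjusted p = 0.583, 0.890 and 0.844).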

How the data were processed

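Brain and liver messenger RNA was measured in 12 libraries. The authors deposited raw read counts per gene symbol, which were used as they stand. The submitters' processing notes name Trimmomatic 0.39, HISAT2 2.2.1, mm10 and featureCounts of Subread 2.0.1, while another methods passage names Tophat2 and HTSeq. The annotation release and use of strand were not given in the sources used here. The authors' tables of their own comparisons hold log2 fold changes and p-values and were not used.

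Counts of all genes were fitted within each comparison with edgeR 4.0.16 (R 4.3.3): TMM factors, filterByExpr (minimum count 10, minimum total 15), the robust quasi-likelihood test, Benjamini-Hochberg adjustment, and a threshold of 0.05. The SE is the size of the log2 fold change divided by √F. The procedure was tested on simulated data. Members, lists and tests were chosen with earlier results of these data known. Every member is named, as are the other Klf genes, the 3 most abundant genes of each other list per tissue, and markers by list sums and first-listed genes. Genes named outside this rule were chosen after their values were seen. Positions and transcript lengths are those of GENCODE M21 (GRCm38, equal to mm10). CPM and the replicate spread rest on 3 libraries per group. The p-values weigh a group difference against a spread that is estimated from these libraries with information shared over genes. Alternatives were RLE and upper-quartile factors, DESeq2 1.42.0, all 12 libraries, no or a stricter filter, the replicate number as a block, the suffix 2nd, and libraries left out.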

Additional observations from a re-analysis of the deposited data

How the results depend on the processing

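No member was called in brain, and the same members were called between control tissues, under every alternative run with libraries kept. DESeq2 called 618 genes in brain and 61 in liver. In liver, 2 genes were called with upper-quartile factors, 8 with no filter, 2 with the stricter filter (at least 1 CPM in all libraries), 14 with all 12 libraries, 6 with the suffix as covariate, 81 without both libraries with muscle transcripts, and between 0 and 25 with 1 library left out, the most without liver control replicate 1. Liver members above all controls numbered 2 with all 12 libraries (4.02% of all genes), 4 without both libraries with muscle transcripts (20.7%), and 1 to 4 with 1 library left out (7.85% to 15.7%). In brain 0 to 1 lay above all controls with 1 library left out (14.9% to 23.4%) and 3 to 4 below (14.6% to 21.7%). With 1 library left out, the sign turned in brain for Klf2 (-0.23 to 0.45), Klf11 (-0.248 to 0.069) and Klf15 (-0.092 to 0.093), and between control tissues for Klf2 (-0.661 to 0.008). The cause was not tested.

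The sources used here do not say that replicate numbers pair the libraries, and whether brain and liver of 1 number share a mouse is not given. Same-numbered deviations correlated at -0.29, 0.19 and -0.20 in brain, at -0.58, -0.51 and -0.09 in liver, and at 0.22, 0.18 and 0.09 between control tissues, where each library correlated best with its own number, a hint from the data and not from the design. With the replicate number as a block, 0 genes were called in brain and 1 in liver, and no call of a member changed. Depth limits Klf4 and Klf7 in liver most.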

Other observations

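The Sp factors, which share the zinc finger type of the Kruppel-like factors and compete for GC-rich boxes, gave 0 called genes by edgeR's quasi-likelihood test in either tissue. In brain 8 of 9 were fitted, and 1 was higher and 1 lower at an unadjusted p under 0.05 (10.0% of all genes each way). Sp3 had 45.4, 56.0 and 48.2 CPM in control brain and 59.4, 64.8 and 61.0 after heat stress, without overlap, a log2 fold change of 0.31 (SE 0.12, adjusted p = 0.202). Sp4 and Sp1 had 0.24 and -0.28 (adjusted p = 0.303 and 0.295). In liver 5 were fitted and 0 had an unadjusted p under 0.05, with Sp1 at -0.20, Sp3 at -0.05 and Sp4 at -0.02.

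Among 9 co-activators and co-repressors that Kruppel-like factors bind, 1 was higher and 2 lower in brain at an unadjusted p under 0.05 (10.0% of all genes each way), and 0 in liver (5.84% in either direction), with Kat2b at 0.16 and Sin3b at 0.20 there. The deacetylase gene Hdac2 had 76.7, 89.4 and 82.0 CPM in control brain and 97.4, 104.1 and 99.5 after heat stress, without overlap, a log2 fold change of 0.28 (SE 0.10, adjusted p = 0.202). Ctbp1, the co-repressor bound by Klf3 and Klf12, stood at 0.03 in brain (SE 0.11, adjusted p = 0.906) and 0.15 in liver (SE 0.17, adjusted p = 0.953), and Sin3b at -0.02 in brain. Ep300, an acetyltransferase gene chosen after its values were seen, had 65.1, 55.9 and 60.4 CPM in control brain and 48.2, 40.0 and 43.4 after heat stress, a log2 fold change of -0.47 (SE 0.12) with an adjusted p of 0.170 by edgeR and 0.0320 by DESeq2.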
